A study of Zea mays with 4 samples.

Results

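Peak regions of ZmICE1a CUT&Tag in maize endosperm that had another such region close by were examined, and 2967 of 11310 shared regions (26.2%) were of this kind. A shared region is a stretch of chromosomes 1 to 10 where peaks of both deposited lists overlapped by 1 bp or more. A region was kept when the summit of its nearest other shared region lay within 5 kb and its widest peak was under 1200 bp in at least one list. Summits for the spacing were those of list 1. Regions with no other shared summit within 50 kb, 4200 in number (37.1%), served as the isolated set, and 3928 regions lay between both limits. The isolated set had no width limit. A further 215 regions had a neighbour within 5 kb but were broad in both lists and were left out.

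The assay was CUT&Tag, in which an antibody against the factor holds a Tn5 transposase at its binding sites, where the enzyme cuts and tags nearby DNA. There were 4 libraries of maize endosperm, 2 of a ZmICE1a mutant and 2 of the wild type, numbered as biological replicates 1 and 2. The labels give neither the allele of the mutant nor the inbred line, and no stage of the kernel. The mutant and the wild-type library of a replicate both belong to the peak list of that number. For each list the values are those of a treatment set against a control. That these were the 2 libraries of the replicate is an inference, and the labels do not state which genotype had which role. A value below can therefore not be assigned to the mutant or to the wild type. A peak is an excess of treatment over control, and whether it is a site bound by ZmICE1a was not tested. The label of the tissue could not be checked against marker genes, since peak lists hold no expression.

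ZmICE1a belongs to the basic helix-loop-helix transcription factors, which bind DNA as dimers, typically at short E-box motifs. Its Arabidopsis relative ICE1 is known as an activator of cold-response genes and as a partner in stomatal development. Promoters and enhancers of plants often hold several binding sites of a factor, and neighbouring peaks can lie on the same regulatory stretch or in separate ones. Peaks closer together than the gap that the caller bridges are joined into 1 wide peak, so that closely spaced regions as defined here are sites that stayed apart as separate peaks. No sequence is shown and no gene is named, because a genome and an annotation of the B73 version 4 assembly, to which the coordinates refer, were not used here.

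The neighbours of closely spaced regions lay mostly at short distances. The distance to the nearest other summit had a median of 1893 bp, with quartiles of 1265 and 3120 bp, and ran from 304 to 4997 bp. In 0.25 kb steps the most regions, 336, had their neighbour at 1250 to 1500 bp. A distance over 1 and up to 2 kb was found for 1183 regions (39.9%), against 401 at up to 1 kb, 609 over 2 to 3 kb, 420 over 3 to 4 kb and 354 over 4 to 5 kb. The limit of 5 kb did not coincide with a step in the counts: of shared regions of any width, 92 had their neighbour in the last 0.25 kb below 5 kb and 113 in the first 0.25 kb above it. Few distances under 0.5 kb could occur, since no peak was narrower than 350 bp in list 1 or 343 bp in list 2. The spacing is what chose the regions, and its distribution is given as a description only.

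**Figure D1:**
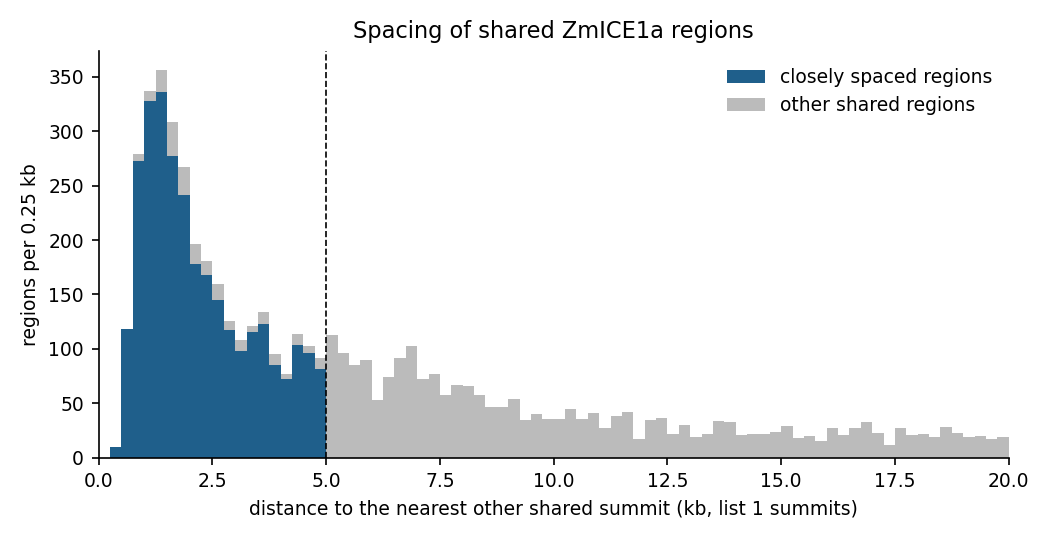
Number of shared regions per 0.25 kb of distance to the nearest other shared summit (x axis, kb), up to 20 kb, with closely spaced regions in blue and other shared regions in grey; the dashed line is the 5 kb limit. The fullest step, 1250 to 1500 bp, holds 336 closely spaced regions, and the grey part below the limit is the 215 broad regions left out.

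Regions next to the limits are given as a description. Those just inside 5 kb had their neighbour at 4997, 4994 and 4994 bp, and list 1 folds of 4.31, 3.21 and 5.56. The ones just outside had it at 5003, 5005 and 5005 bp, and list 1 folds of 11.7, 6.18 and 4.68. The broadest region kept by its narrower list had a peak of 1197 bp in list 1 and a fold of 9.31 there. The first one left out had a peak of 1200 bp and a fold of 10.95.

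Most close neighbours came in pairs. Runs of successive shared summits at most 5 kb apart held 2 regions in 1082 cases, 3 in 236, 4 in 60 and 5 in 14, and no run was longer. Of the closely spaced regions, 2021 were in runs of 2, 659 in runs of 3, 223 in runs of 4 and 64 in runs of 5. The median distance from the first to the last summit was 2000 bp in runs of 2 and 9342 bp in runs of 5. Treatment fragments at the summit had medians of 62 in list 1 and 52 in list 2 for runs of 2, 69 and 60 for runs of 3, 77 and 67 for runs of 4, and 66 and 54 for runs of 5. The median fold was 5.25 and 4.81 in runs of 2 and 5.04 and 4.60 in runs of 4, so that runs of 4 had more fragments than runs of 2 but no higher fold. In runs of 3 it was 5.19 and 4.78, and in runs of 5 it was 5.33 and 4.75. The fold thus did not change evenly with the length of the run. In the 310 runs of 3 or more, the region with the highest fold lay inside the run in 104 cases in list 1 (33.5%) and in 93 cases in list 2 (30.0%), where 39.1% of the regions of these runs were inside ones. The last share is over regions and gives longer runs more weight, so it is not the share to be met by runs. The difference was not tested.

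The 5 longest runs with the most fragments show how the regions were laid out. The first, on chromosome 3 from 41311964 to 41320506 (B73 version 4, counted from 1), had 5 regions over 7954 bp between the outer summits. Its summits held 135, 204, 158, 207 and 202 treatment fragments in list 1, and 115, 176, 109, 190 and 150 in list 2. These are high numbers beside the medians of 65 and 55 of closely spaced regions, but the folds were low, from 3.14 to 4.72 in list 1 and from 2.32 to 3.73 in list 2. The control background was high there as well, from 21 to 41 fragments in list 1.

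The second run, also on chromosome 3 (191574218 to 191582328), had folds from 4.04 to 14.1 in list 1 and from 3.57 to 5.52 in list 2. Its last region differed most between the lists, with a list 1 fold of 14.1 where the control was 5 fragments and a list 2 fold of 4.27 where it was 21.7. The third, on chromosome 1 (12701744 to 12714112), ranged from 34 treatment fragments at its first summit to 258 at its second in list 1, and from 30 to 215 at the same summits in list 2. The fourth, on chromosome 9 (140057875 to 140070366), and the last, on chromosome 2 (14674336 to 14689404), spanned 11984 and 13269 bp between outer summits. Each of runs 2 to 5 contained 1 broad region, which counts in the run but not among the closely spaced regions.

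**Figure D2:**
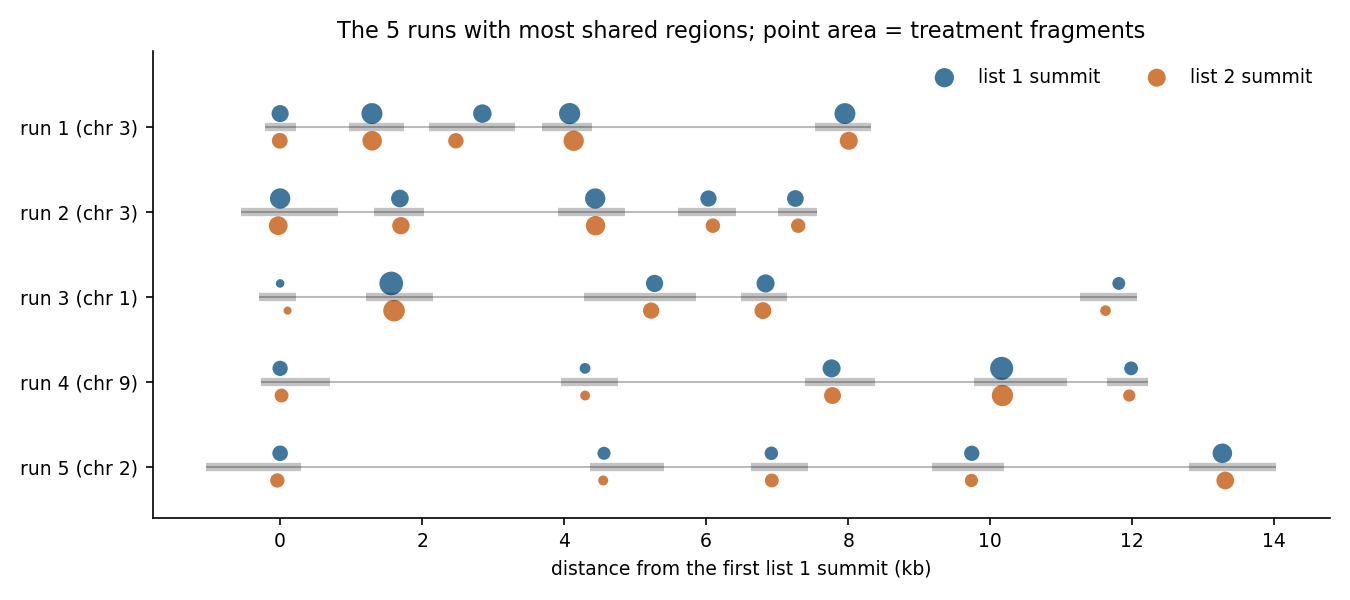
The 5 runs with most shared regions, drawn to scale as distance from the first list 1 summit (x axis, kb). Grey blocks are the shared regions, blue and orange points are the summits of list 1 and list 2, and the area of a point is its number of treatment fragments; summits of both lists lie nearly at the same place in all but a few regions, such as the third of run 1, where they were at 41315028 and 41314655.

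The spacing of close neighbours was similar in both lists. Pairs of regions that were each other's nearest, both under the width limit and within 5 kb, numbered 1248. The distance between their summits in list 2 differed from that in list 1 by a median of 68 bp. It was within 100 bp in 798 pairs (63.9%) and within 200 bp in 84.1%. Since a shared region needs overlapping peaks, part of this likeness follows from how the regions were formed. Between the facing ends of the regions lay a median of 936 bp (quartiles 436 and 2104 bp), and the smallest such gap was 17 bp. A peak called in 1 list only lay between the summits of 72 pairs (5.77%).

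The pairs with the smallest distance between list 1 summits show what this looked like at its extreme. On chromosome 5 the regions 171912482 to 171912945 and 171913055 to 171913545 had summits 304 bp apart in list 1 and 580 bp apart in list 2. Their left and right summits had 59 and 37 treatment fragments in list 1 (95% Poisson intervals 44.9 to 76.1 and 26.1 to 51.0), and 41 and 34 in list 2. The intervals of left and right overlap in both lists. The second pair, on chromosome 3 from 169074312 to 169075268, had summits 465 and 514 bp apart in lists 1 and 2. It held 34 and 42 treatment fragments in list 1, and 31 and 34 in list 2. The third, on chromosome 2 from 182393664 to 182394617, was 472 and 440 bp apart. There the left summit had 76 and 52 fragments in lists 1 and 2, and the right summit 85 in each. The other pairs of the 5, both on chromosome 1, from 33788870 to 33789986 and from 244858977 to 244859902, were 479 and 491 bp apart in list 1. At such distances the 1 kb windows around the summits, from which the caller can take the control background, overlap in part.

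Closely spaced regions had lower enrichment than isolated ones, by a small amount. The authors' fold enrichment, a linear ratio over the local control with a pseudocount of 1, had a median of 5.23 in closely spaced and 5.61 in isolated regions in list 1. In list 2 it was 4.78 and 5.06. The ratio of treatment to control without that pseudocount, adjusted for depth, had medians of 5.92 and 6.57 in list 1 and 5.22 and 5.62 in list 2. The quartiles of closely spaced and isolated regions overlapped widely, at 3.92 to 7.11 against 4.19 to 7.69 for the list 1 fold, so the difference is one of the middle of the distribution and does not separate the sets. On the log2 scale, averaged over both lists, the median fold differed by -0.093 (0.938 times) and the median ratio by -0.11 (0.925 times), closely spaced minus isolated.

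Each of the 10 chromosomes had a lower median fold and a lower median ratio in its closely spaced regions. For the fold the differences ran from -0.17 to -0.013 and for the ratio from -0.25 to -0.013 on the log2 scale (adjusted p = 0.00391 each, exact two-sided sign test over 10 chromosomes, Benjamini-Hochberg over 6 quantities). This test counts chromosomes of the same libraries, so it measures whether a difference recurs along the genome and not whether it recurs between samples. The smallest p that 10 chromosomes allow is 0.00195 before adjustment. The width limit held for closely spaced regions only. With it on isolated regions too, the fold was lower on 9 chromosomes and higher on 1 (adjusted p = 0.0322, exact sign test). The ratio was then lower on 9 and higher on 0 (adjusted p = 0.0117, exact sign test). The 2 lists were counted as 1 sample and give no SD.

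Treatment fragments at the summit had medians of 65 in closely spaced and 61 in isolated regions in list 1, and 55 and 50 in list 2. The pooled difference of 0.12 (log2) was positive on 6 chromosomes and negative on 4 (adjusted p = 0.754, exact sign test), and did not pass. In the list 2 values alone it was 0.14 and positive on 9 of 10 chromosomes (adjusted p = 0.0322, exact sign test). The control background had medians of 7 and 6 fragments in list 1, and 9.86 and 8.88 in list 2. Its log2 difference of 0.23 was positive on 8 chromosomes, negative on 1 and 0 on chromosome 10 (adjusted p = 0.0469, exact sign test). The call was lost in 9 of 16 alternative settings, among them the list 2 values alone (0.15, adjusted p = 0.289) and the genome without chromosome 3 (0.17, adjusted p = 0.0844, exact sign tests). Chromosome 3 had the largest differences of both kinds, 0.50 for treatment fragments and 0.72 for the control background. Its isolated regions had the lowest log2 medians of the 10 chromosomes, 5.45 for treatment fragments and 2.18 for the control background. Its closely spaced regions had 5.95 and 2.90, within the range of the closely spaced regions of the other chromosomes.

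**Figure D3:**
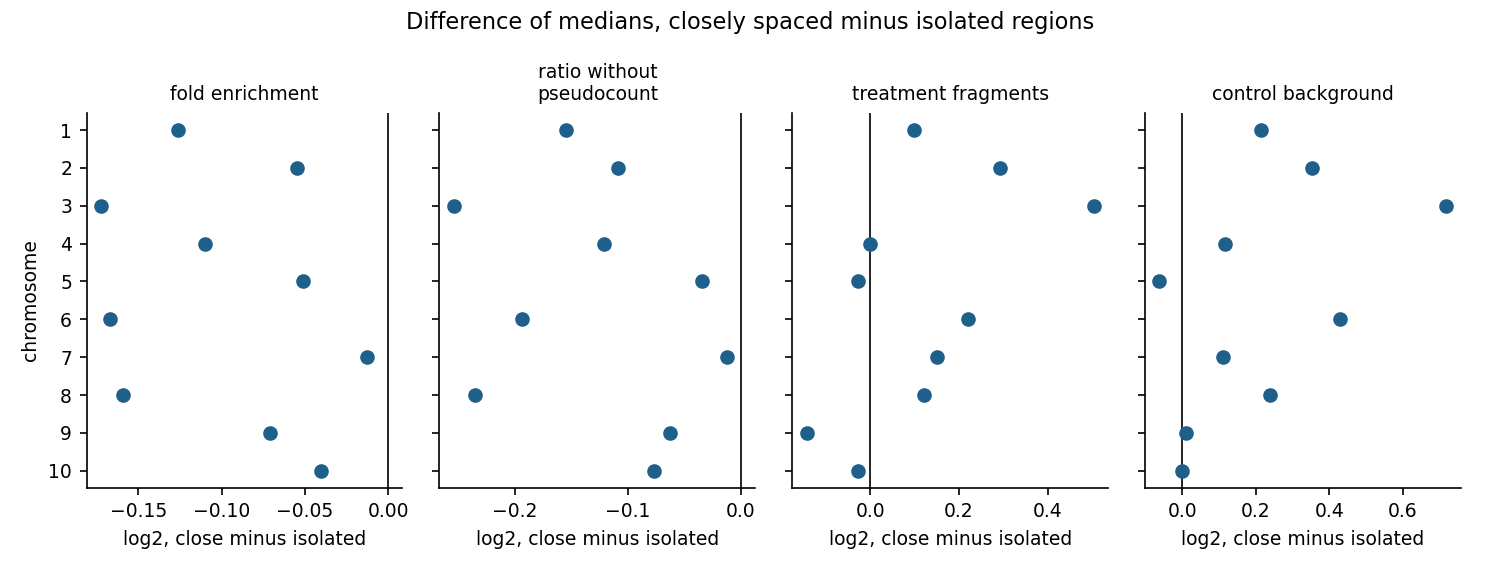
Difference of the medians of closely spaced minus isolated regions on each chromosome (y axis), averaged over both lists, on the log2 scale (x axis), for 4 summit values. All 10 points lie below 0 for the fold and for the ratio, and they lie on both sides of 0 for treatment fragments.

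The enrichment was lowest where neighbours were nearest. Among regions under the width limit, the median list 1 ratio was 5.71 with a neighbour under 1 kb, 5.82 at 1 to 2 kb, 6.03 at 2 to 3 kb, 5.93 at 3 to 4 kb and 6.17 at 4 to 5 kb. It was 6.50 at 5 to 10 kb and between 6.50 and 6.72 at all longer distances. In list 2 the ratio was 5.003 under 1 kb, 5.23 at 1 to 2 kb, 5.15 at 2 to 3 kb, 5.34 at 3 to 4 kb and 5.53 at 4 to 5 kb. It lay between 5.45 and 5.80 beyond 5 kb. The list 2 fold was 4.56 under 1 kb and 4.97 at 4 to 5 kb. Beyond 5 kb it lay between 4.93 and 5.29, with the lowest value beyond 100 kb. The rise with distance was therefore not even. Treatment fragments followed another order, with list 1 medians of 60 under 1 kb, 67 at 1 to 2 kb, 58 at 4 to 5 kb and 59 beyond 100 kb. The control background had list 1 medians of 7, 7.35 and 7 in the 3 nearest classes, and of 5.6 to 6 beyond 4 kb. The classes differ in number, from 354 to 2499 regions, and their quartiles overlap.

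**Figure D4:**
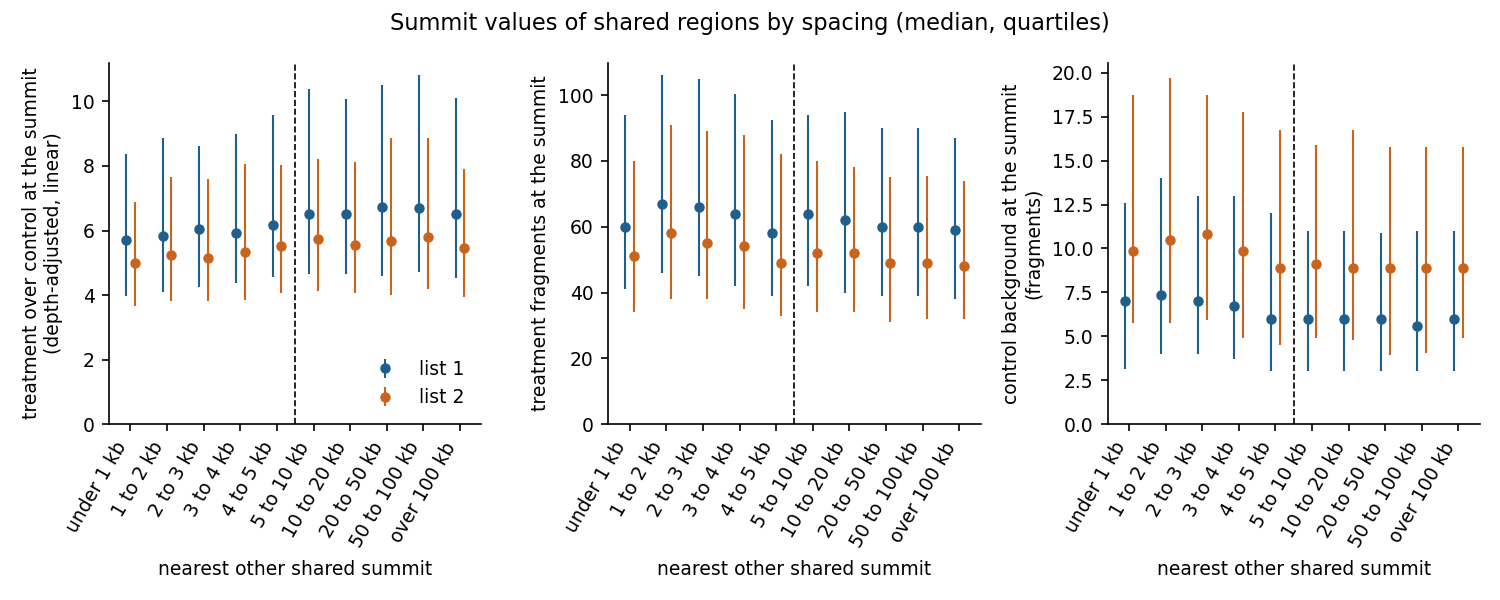
Median (points) and quartiles (bars) of the ratio without pseudocount, the treatment fragments and the control background at the summit, by distance to the nearest other shared summit, for list 1 (blue) and list 2 (orange), in regions under the width limit. The dashed line is the 5 kb limit; the ratio of list 1 is 5.71 in the nearest class and at least 6.50 in all classes beyond 5 kb.

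Some regions had a control at the genome-wide background, the floor that the caller uses where the control has fewer fragments than the genome average. In list 1 this was so for 45 of 2967 closely spaced regions (1.52%, 95% exact binomial interval 1.11 to 2.02), against 138 of 4200 isolated regions (3.29%, 2.77 to 3.87) and 2.62% of all shared regions. In list 2 it was 23 (0.775%, 0.492 to 1.16) against 95 (2.26%, 1.83 to 2.76), with 1.68% overall. Intervals cover counting error only, neighbouring regions are not independent, and the difference was not tested.

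High enrichment occurred at a share near that of isolated regions, and the difference was not tested. A fold above 10 in both lists was found in 126 closely spaced regions (4.25%, exact binomial interval 3.55 to 5.04) and 193 isolated ones (4.60%, 3.98 to 5.27), beside 4.69% of all shared regions. Of the 126, 37 lay on chromosome 3 and 23 on chromosome 7, which held 379 and 337 closely spaced regions. Among all shared regions, 136 of 1362 on chromosome 3 and 77 of 1196 on chromosome 7 had such a fold, so both chromosomes were prominent among shared regions of any spacing. The nearest neighbour of such a region had a fold above 10 in both lists in 21 of 126 cases (16.7%). For the other 2841 closely spaced regions the neighbour was that high in 101 cases (3.56%). These shares count a pair from both sides and have no test. Neighbours of the 126 had median folds of 7.15 in list 1 and 6.42 in list 2, against 5.23 and 4.78 for all closely spaced regions. Most neighbours were lower than the region beside them, which follows from picking the 126 by a fold above 10.

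The 10 strongest closely spaced regions, by the lower of both folds, were on chromosome 3 (8 regions), chromosome 7 and chromosome 8. They are given as a description, since all were picked by fold. The first, chromosome 3 from 140532935 to 140534029, held 109 treatment fragments in list 1 (95% Poisson interval 89.5 to 131) and 88 in list 2 (70.6 to 108), which gave folds of 44.2 and 46.7. Its neighbour at 140529601 to 140530304, 3389 bp away, had folds of 17.0 and 18.1 from 41 and 35 fragments. Both summits stood over a control of at most 1 fragment.

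The second, on the same chromosome from 159329767 to 159331158, had folds of 35.4 and 35.7 in lists 1 and 2, against 8.28 and 13.1 in its neighbour at 3374 bp. The third, from 159524037 to 159524748, had 26.2 and 25.7 beside a neighbour at 840 bp with 7.0 and 8.08. The fourth, from 153467275 to 153468572, had 25.1 and 25.7 beside one at 1940 bp with 15.5 and 12.5. In each of these the neighbour was well below the strong region in both lists, which can follow from picking the strong region by its fold. Of the remaining chromosome 3 regions, that at 161432331 to 161433224 had the highest fragment numbers, with 128 and 129 in lists 1 and 2 and folds of 20.1 and 26.6. The control background at the 10 summits was at most 3.19 fragments in list 1 and 3.89 in list 2, below the medians of 7 and 9.86. Which share of the fold comes from the low control was not tested.

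Pairs in which both partners were strong were few. The pair with the highest fold in its weaker partner was the chromosome 3 pair just described. The second was on chromosome 7, with regions 127956796 to 127957714 and 127961438 to 127962296. Its left summit had folds of 15.6 and 29.3 in lists 1 and 2, and its right summit 20.5 and 22.8, so that the lists differ on which partner was higher. The third, at 113471743 to 113472610 and 113476230 to 113477380 of chromosome 7, had folds of 21.4 and 14.4 on the left and 17.8 and 31.3 on the right, again in opposite order. The fourth was on chromosome 1 from 270978297 to 270980182, with summits 1173 bp apart, 37 and 58 treatment fragments at the left and right summits in list 1, and 30 and 51 in list 2. The last, on chromosome 3 from 150544564 to 150548194, had folds of 19.8 and 18.4 on the left and 12.9 and 13.9 on the right.

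The ranks of partners were correlated more closely at short distances than far apart, though not in an even series. Mutually nearest regions under the width limit were correlated with each pair entered in both orders. The Spearman rho between the ratios of the partners was 0.50 in each list for the 195 pairs under 1 kb apart. It was 0.45 and 0.46 at 1 to 2 kb (514 pairs), 0.31 and 0.34 at 2 to 3 kb (249 pairs) and 0.36 and 0.38 at 3 to 5 kb (290 pairs). It was 0.22 and 0.29 at 5 to 10 kb (472 pairs), 0.08 and 0.05 at 10 to 20 kb (329 pairs), 0.18 and 0.22 at 20 to 50 kb (417 pairs) and 0.06 and 0.07 in the 858 pairs beyond 50 kb. The rho was thus higher at 3 to 5 kb than at 2 to 3 kb, and higher at 20 to 50 kb than at 10 to 20 kb.

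The control background had a rho of 0.63 and 0.64 under 1 kb and 0.09 and 0.10 beyond 50 kb. Treatment fragments had 0.43 and 0.42 under 1 kb, 0.25 and 0.23 at 1 to 2 kb and 0.07 and 0.06 beyond 50 kb. The size of the difference between partners gave another order of the measures. Under 1 kb the median absolute log2 difference was 0.78 and 0.74 for the control background, 0.62 and 0.60 for treatment fragments, 0.45 and 0.46 for the ratio and 0.38 and 0.41 for the fold, so that partners differed most in the control although its rho was the highest. For treatment fragments this difference did not grow with distance step by step: it was 0.74 and 0.79 at 1 to 2 kb, 0.66 and 0.68 at 5 to 10 kb and 0.79 in each list beyond 50 kb. These correlations and differences are descriptions over pairs. Partners share their libraries, the mappability of the stretch and, when near, part of the control window, and the part of each was not tested.

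**Figure D5:**
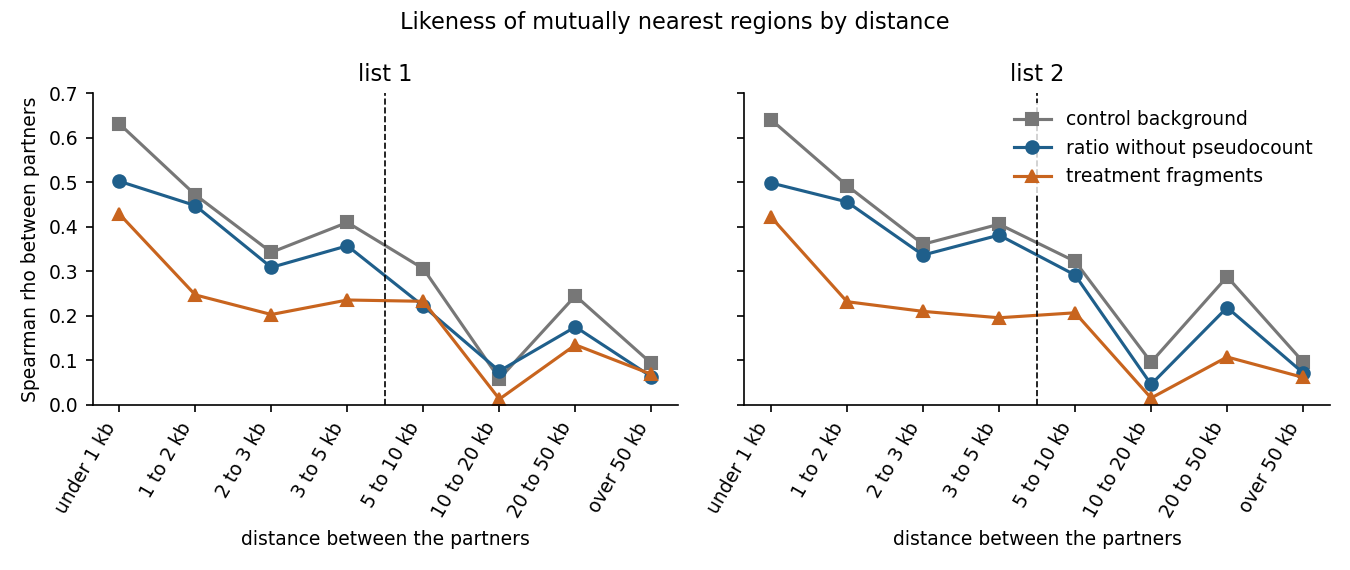
Spearman rho between the partners of mutually nearest pairs (y axis) by their distance (x axis), in list 1 (left) and list 2 (right), for the control background, the ratio without pseudocount and the treatment fragments. Each pair was entered in both orders. The dashed line is the 5 kb limit. All 3 measures are highest under 1 kb and at most 0.10 beyond 50 kb.

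Partners still differed in strength. Among the 1248 pairs within 5 kb, the partner with more treatment fragments had a median of 1.64 times the number of the other in list 1 and 1.66 times in list 2. A difference of more than 2-fold was found in 423 pairs (33.9%) in list 1 and 449 (36.0%) in list 2. The same partner had more treatment fragments in both lists in 1098 pairs (88.0%), and of the 423 pairs that differed by more than 2-fold in list 1, 420 had the same order in list 2. The Spearman rho between lists of the log2 difference within a pair was 0.93 for treatment fragments (1248 pairs) and 0.45 for the fold. For the fold the same partner was higher in both lists in 811 pairs (65.0%). A difference of over 2-fold in the fold was seen in 217 pairs in list 1, and 182 of these had the same order in list 2. The order of partners was therefore shared between the lists more often by fragments than by fold; independence of the lists was not tested.

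Peaks called in 1 list only were more common around closely spaced regions. Such a peak lay within 5 kb of 623 closely spaced regions (21.0%, exact binomial interval 19.5 to 22.5), against 549 isolated ones (13.1%, 12.1 to 14.1) and 16.9% of all shared regions. The share was higher in closely spaced regions on 10 of 10 chromosomes, by 2.80 to 12.7 percentage points (adjusted p = 0.00391, exact sign test). The spacing rule selects dense stretches, so a further peak within the same 5 kb can follow in part from the rule. The sign test cannot separate that part from the rest. The excess was 7.93 percentage points with such peaks of both lists, 6.78 with those of list 2 alone and 1.60 with those of list 1 alone. With each chromosome divided into 10 equal parts, it was 5.31 in the outer 2 parts at each end and 9.04 percentage points in the middle 4 parts.

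Summits agreed slightly less well between the lists. The median distance between the list 1 and list 2 summits of a region was 39 bp in closely spaced and 36 bp in isolated regions. It was longer in closely spaced regions on 8 chromosomes and shorter on 1 (adjusted p = 0.0469, exact sign test), and the call was lost in 11 of 14 alternative settings. Both summits were within 100 bp in 79.2% (77.7 to 80.7) of closely spaced, 81.4% (80.2 to 82.6) of isolated and 80.5% of all shared regions. Several peaks of 1 list were joined in 111 closely spaced regions (3.74%, 3.09 to 4.49), against 105 isolated ones (2.50%, 2.05 to 3.02) and 3.15% of all.

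Closely spaced regions were found on every chromosome and lay more towards the chromosome ends. Their share of the shared regions ran from 21.5% on chromosome 4 to 29.2% on chromosome 1. Chromosome 4 also had the lowest density of shared regions, 4.05 per Mb, and chromosome 1 had 5.82 per Mb. The median spacing within the set ran from 1664 bp on chromosome 5 to 2351 bp on chromosome 4. The outer 2 of the 10 parts at each end held 1946 closely spaced regions (65.6%), against 2028 isolated ones (48.3%) and 58.3% of all shared regions. The middle 4 parts held 455 (15.3%) against 1308 (31.1%) and 22.5% of all. The spacing rule selects dense stretches, so this placement follows in part from the rule and no test is given.

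The median spacing was 1945 bp in the outer parts and 1760 bp in the middle ones, a description of a distance that the rule limits to 5 kb. The lower ratio of closely spaced regions was seen in both parts, at -0.10 on the log2 scale in the outer parts (adjusted p = 0.0117) and -0.20 in the middle ones (adjusted p = 0.00586, exact sign tests, 10 of 10 chromosomes in each). Whether the difference is larger in the middle was not tested.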

How the data were processed

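Mutant and wild-type endosperm libraries had been turned into 2 peak lists before deposition. Per the submitters' processing notes the tools included MACS2 2.1.0, Bowtie2 2.4.1, fastp 0.23.1 and SAMtools 1.12, whose settings are not given in the sources used here. Contig names in the deposited files are those of B73 version 4. The deposited values per peak are a score, a linear fold or ratio over the local control, and the −log10 of p and of q at the summit (lowest −log10 q 2.04 and 2.02). The deposited start, end and summit were used as positions.

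From the fold and the −log10 p, each peak's treatment fragments (as a whole number) and its control background were solved for (tolerance 0.001, up to 1000 fragments), which succeeded for 100% of the 14475 and 17518 peaks after scaling the list 1 treatment by 0.650. On peaks simulated with the same scaling, pseudocount and Poisson formula, the fragment numbers were recovered. This checks the solving step only, since the simulation takes the formula and the scaling as given. Library depth is unknown; the treatment had 1.54 times the depth of its control in list 1 and 0.986 times in list 2. Control values of list 2 are on the scale of its treatment. A control within 1% of the lowest value was counted as at the genome-wide background. In a region with several peaks of a list, the widest gave the values.

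Medians of closely spaced and isolated regions were compared per chromosome with an exact two-sided sign test (threshold 0.05 after adjustment over 6 quantities, differences under 0.0001 being ties), with Python 3.11.15 and SciPy 1.17.1. Alternatives changed the spacing, width, overlap, summit, −log10 q, chromosome part, list and average. The regions named were the 5 tightest pairs, the 5 longest runs, the 10 strongest members, the 5 strongest pairs and those nearest the limits. Members, rules and tests were chosen with earlier results of these data known.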

Additional observations from a re-analysis of the deposited data

Results flagged for a closer look

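Outside chromosomes 1 to 10, 94 shared regions lay on unplaced contigs, which entered no comparison. Of these, 20 (21.3%) on 10 contigs met the same spacing and width limits, each called above the control. Their median fold was 6.29 in list 1 and 5.39 in list 2, from 64 and 48 treatment fragments over a control background of 4 and 7.4.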

How the results depend on the processing

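The lower fold, the lower ratio and the higher share of peaks of 1 list only nearby kept direction and call in all 16 alternatives (adjusted p up to 0.043, exact sign tests); the log2 difference ran from -0.18 to -0.061 for the fold and from -0.20 to -0.084 for the ratio, and the share difference from 1.60 to 11.8 percentage points. The treatment difference passed with no width limit (0.20), in the middle 4 parts of the chromosomes (0.16), with means (0.15) and in list 2 alone (range over single lists 0.092 to 0.14). The control difference lost its call with spacing limits of 2 kb (0.27) and 10 kb (0.16), isolated regions beyond 100 kb (0.21), the width limit on both sets (0.26), reciprocal overlap of 50% (0.21), −log10 q of at least 5 (0.19), 1 region per run (0.14), without chromosome 3 (0.17) and in list 2 alone (range over single lists 0.15 to 0.22). The summit distance lost its call with limits of 2 kb (3 bp) and 10 kb (2 bp), isolation beyond 20 or 100 kb, no width limit or reciprocal overlap (3 bp each), −log10 q of at least 5, outer parts or 1 region per run (4 bp each), the middle parts (8 bp) and means (8.51 bp). The causes were not tested, and the share of peaks of 1 list only nearby can follow in part from the spacing rule. No direction reversed. No paired analysis was possible because both genotypes of a replicate belong to the same list, which holds no value per library. Library depth is unknown, and fragment numbers per summit limit the precision of single regions.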
